A study of Mus musculus with 45 samples.

Results

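The comparison described here sets 15 libraries of mouse forelimb buds cultured with 1 µM bisphenol AF (BPAF) against 15 control libraries, with time in culture held as a block of 3 levels. It uses 30 of the 45 libraries of the study, chosen by the dose and time in their labels. The other 15 libraries received 5 µM BPAF and serve only to place the values of 1 µM. Limb buds came from CD1 mouse embryos at gestation day 13, and limbs of male and female embryos shared culture bottles. The groups were 1 µM BPAF for 3 h, 24 h and 48 h, and the vehicle dimethyl sulfoxide (DMSO) for 3 h, 24 h and 48 h, with 5 libraries in each group. All of these limbs were grown outside the embryo, without a blood supply, in the same medium, and each library holds RNA of all cell types of whole limbs. Nothing in the labels gives the culture day of a replicate, and the p-values therefore rest on the spread among these 30 libraries, which may be technical. The question was whether the lower dose, at which few genes pass a test at any single time, has a common effect that appears when the times are combined.

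BPAF is a fluorinated relative of bisphenol A used in polymers, and bisphenols are studied mostly as ligands of estrogen and related nuclear receptors. Liver X receptors (LXRs) are nuclear receptors that bind oxidised forms of cholesterol, pair with the retinoid X receptor and switch on genes that export cholesterol from cells, carry it away or make fatty acids. The opposite arm of sterol control is run by the protein of Srebf2 (SREBP2), which is released from the endoplasmic reticulum (ER) when sterol is low and raises the enzymes of cholesterol synthesis. Sterol supply matters in the limb because Hedgehog signalling and growing cartilage both need cholesterol.

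The start regions of 7 genes of these 2 arms are shown first: they are members of the 2 sterol lists described below, and Srebf1 is 1 of the 2 genes called at 1 µM. They are RefSeq windows of 300 bases on build GRCm38.p6, from 250 bases before to 50 after the annotated start, read 5′ to 3′ on the gene's strand. For the LXR targets, the capitals mark GGTTA and CGGTCA with 4 bases of any kind between them, searched on both strands, a spaced repeat whose letters were taken from the Abca1 window itself, so its match there is no finding. Abca1 encodes a cholesterol exporter, Srebf1 the transcription factor SREBP1 of fatty acid synthesis, and Fasn fatty acid synthase.
Abca1 (chr4:53159846-53160145, minus strand): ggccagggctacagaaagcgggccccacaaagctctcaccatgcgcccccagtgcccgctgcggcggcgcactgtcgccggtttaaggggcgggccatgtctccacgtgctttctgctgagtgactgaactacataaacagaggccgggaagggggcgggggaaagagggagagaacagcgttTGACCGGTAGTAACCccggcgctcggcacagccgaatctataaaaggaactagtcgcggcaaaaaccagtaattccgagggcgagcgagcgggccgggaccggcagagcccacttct
Srebf1, window 3 of 3 (chr11:60210422-60210721, minus strand): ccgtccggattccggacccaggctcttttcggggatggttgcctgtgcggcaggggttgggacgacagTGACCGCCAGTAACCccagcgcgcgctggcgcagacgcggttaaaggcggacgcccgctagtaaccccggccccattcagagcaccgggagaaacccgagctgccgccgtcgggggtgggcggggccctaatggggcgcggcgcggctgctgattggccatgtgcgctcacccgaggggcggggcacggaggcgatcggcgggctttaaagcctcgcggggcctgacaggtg
Fasn (chr11:120824498-120824797, minus strand): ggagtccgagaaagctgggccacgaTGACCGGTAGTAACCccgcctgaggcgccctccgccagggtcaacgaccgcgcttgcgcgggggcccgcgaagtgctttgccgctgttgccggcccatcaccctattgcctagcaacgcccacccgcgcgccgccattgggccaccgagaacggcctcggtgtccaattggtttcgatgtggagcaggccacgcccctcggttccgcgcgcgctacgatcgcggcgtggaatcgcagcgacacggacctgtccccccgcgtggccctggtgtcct
Of 12445 tested genes with a window, 4 held these letters: Abca1, Srebf1, Fasn and Prrg4. The first 3 are members of the list of 15 LXR genes (targets and the receptors Nr1h2 and Nr1h3), 9 of which had a window. Leaving out Abca1, whose match the choice of letters fixed, 2 of 8 listed LXR genes with a window (25%) and 3 of 12444 tested genes (0.0241%) held them. A plain repeat of AGGTCA with the same spacing, also searched on both strands, was in no window of a tested gene. No window of Abcg1 was among those used.

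For the cholesterol synthesis genes, the capitals mark CCAAT on either strand (ATTGG where it lies on the other strand), the letters bound by NF-Y, a factor that works beside SREBP2, and TCACNCCAC, a sterol response element. Matches of these motifs did not overlap in the printed windows. Idi1 encodes isopentenyl-diphosphate isomerase, Lss lanosterol synthase, Msmo1 a sterol C4-methyl oxidase and Hmgcs1 the synthase that makes HMG-CoA.
Idi1 (chr13:8885356-8885655, plus strand): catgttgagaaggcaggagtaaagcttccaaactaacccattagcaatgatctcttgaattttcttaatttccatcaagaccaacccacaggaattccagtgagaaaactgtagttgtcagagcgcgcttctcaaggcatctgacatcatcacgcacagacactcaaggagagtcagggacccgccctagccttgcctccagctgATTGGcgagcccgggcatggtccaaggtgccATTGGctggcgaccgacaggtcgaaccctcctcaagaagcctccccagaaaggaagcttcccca
Lss (chr10:76531355-76531654, plus strand): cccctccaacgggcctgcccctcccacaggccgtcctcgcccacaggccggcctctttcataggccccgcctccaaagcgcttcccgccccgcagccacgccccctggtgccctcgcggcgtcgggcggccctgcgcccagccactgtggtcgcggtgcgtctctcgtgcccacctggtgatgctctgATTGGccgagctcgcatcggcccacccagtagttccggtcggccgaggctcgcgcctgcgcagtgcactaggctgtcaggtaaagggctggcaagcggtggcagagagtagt
Msmo1 (chr8:64733529-64733828, minus strand): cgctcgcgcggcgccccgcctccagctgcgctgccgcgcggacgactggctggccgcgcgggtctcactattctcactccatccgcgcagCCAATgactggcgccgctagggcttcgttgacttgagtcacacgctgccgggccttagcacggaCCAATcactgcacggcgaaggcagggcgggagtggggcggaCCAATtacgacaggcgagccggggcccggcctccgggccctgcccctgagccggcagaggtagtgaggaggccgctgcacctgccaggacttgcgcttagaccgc
Hmgcs1 (chr13:119690101-119690400, plus strand): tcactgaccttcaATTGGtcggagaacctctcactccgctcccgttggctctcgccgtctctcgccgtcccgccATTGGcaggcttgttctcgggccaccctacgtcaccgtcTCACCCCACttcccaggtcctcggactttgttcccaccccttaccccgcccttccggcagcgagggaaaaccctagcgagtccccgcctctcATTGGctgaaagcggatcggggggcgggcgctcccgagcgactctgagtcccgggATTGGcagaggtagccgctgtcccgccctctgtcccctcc
CCAAT was in 16 of the 17 cholesterol synthesis genes with a window (94.1%) and in 5248 of the 12445 tested genes with one (42.2%). TCACNCCAC was in 1 of the 17, Hmgcs1 (5.88%), and in 184 of the 12445 (1.48%). A match is a description of the letters and not a bound site, and a missing match says only that these letters are not in this window.

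Totals of the 30 libraries lay between 15198800 and 25154030 reads assigned to genes, with a median of 17799516. Limb genes were high in all 30 libraries, with a median level of 275 CPM (reads scaled to library size) for Tbx5, the forelimb selector gene, and 6215 CPM for the cartilage collagen Col2a1, while Alb and Nppa, genes of liver and heart, stayed below 0.64 CPM. The hindlimb genes Tbx4 and Pitx1, also listed in advance as genes that should be absent, were detected in all 30. Tbx4 lay at 18.8 to 29.4 CPM and Pitx1 at 2.30 to 7.35 CPM, and the reason was not tested. Bglap, which marks mature osteoblasts, reached at most 0.964 CPM. The share of reads from mitochondrial genes was 1.64% in 1 µM limbs and 1.63% in controls on average, and a two-sided permutation test within times (100000 resamples) gave p = 0.793. The share from haemoglobin genes was 0.160% in 1 µM limbs and 0.167% in controls (p = 0.586 in the same permutation test). The library labelled 1 µM BPAF 3 h replicate 5 also carries a characteristic naming another compound (10 µM BPA). It was kept by its title, and the count of genes called was 2 with it and 2 without it.

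With the times combined, 2 genes of 18047 tested passed a Benjamini-Hochberg adjusted p of 0.05 in edgeR's quasi-likelihood F-test (0.0111%). Both were lower in 1 µM limbs, both are textbook LXR targets, and no gene was called higher. Abcg1, a transporter that hands cholesterol to high-density lipoprotein, fell by 30.2%, and Srebf1 fell by 12.9%. At an unadjusted p under 0.05 there were 743 genes (4.12%), 317 higher (1.76%) and 426 lower (2.36%) in 1 µM limbs, and these shares are the background for the list counts below. The 4.12% lies below the share of 0.05 that evenly spread p-values would give with no effect on any gene. The 743 are therefore not a count of affected genes. The median log2 fold change over all genes tested was -0.0020, the median size of a change was 0.043, and 51.4% of estimates were negative. Lists with few or no members past that p could also lie on 1 side of zero. Estimates were negative for 31 of 34 ribosomal protein genes and 21 of 22 tendon and fibrous tissue genes.

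**Figure D1:**
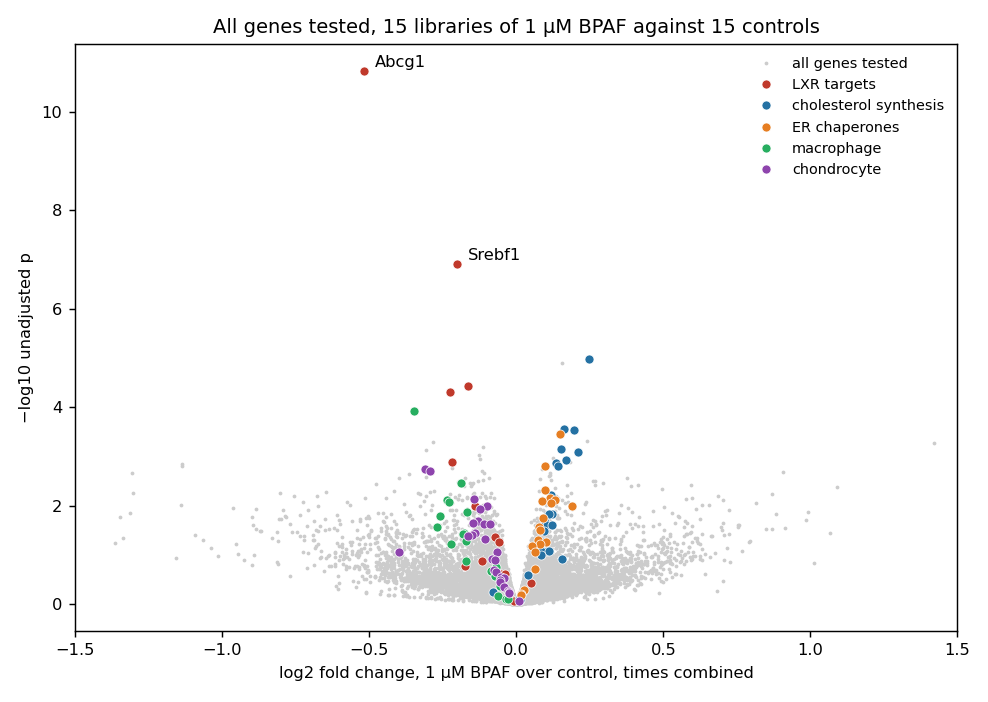
Log2 fold change of 1 µM BPAF over control with times combined (horizontal) against -log10 of the unadjusted edgeR p (vertical) for the genes tested, with 5 gene lists coloured and 1 gene beyond 1.5 on the horizontal axis not drawn. Abcg1 at -0.52 and Srebf1 at -0.20 stand above all other genes, LXR targets and macrophage and chondrocyte genes lie mostly on the left, and cholesterol synthesis genes and ER chaperones mostly on the right.

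Abcg1 (chr17:31057698-31115777, mm10, plus strand) was lower in 1 µM limbs at every time. Levels are given as CPM scaled by the trimmed mean of M-values (TMM), in replicate order. At 3 h they were 15.4, 15.2, 13.2, 14.4 and 11.6 in 1 µM limbs, against 16.4, 17.6, 16.7, 20.1 and 18.4 in controls. At 24 h they were 16.7, 16.5, 14.7, 14.9 and 15.5 in 1 µM limbs, against 23.4, 24.6, 24.5, 27.2 and 25.5 in controls. At 48 h they were 19.5, 17.3, 20.1, 22.8 and 19.8 in 1 µM limbs, against 24.4, 28.9, 30.4, 27.05 and 31.1 in controls. The groups did not overlap at any of the 3 times, and Abcg1 was the only gene of 18047 (0.00554%) whose 1 µM libraries all lay below all controls at each time. No gene lay above at each time. The log2 fold change with times combined was -0.52 ± 0.053 (SE, 15 libraries each, adjusted p = 2.66e-07). Levels of both groups were higher at 48 h than at 3 h.

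At the single times, the log2 fold change of Abcg1 was -0.35 ± 0.10 at 3 h, -0.68 ± 0.075 at 24 h and -0.51 ± 0.092 at 48 h. The 24 h value passed alone (edgeR adjusted p = 0.00133), while that at 48 h had an adjusted p of 0.647. The test that its effect differs between times gave an unadjusted p of 0.0382, which did not pass once adjusted over all genes. At 5 µM, the combined log2 fold change over the same controls was -1.39 ± 0.11, a fall of 61.8%. The difference of 5 µM over 1 µM, which uses no control library, was -0.87 ± 0.10 (edgeR adjusted p = 6.13e-06). At 48 h the 5 µM levels were 6.80, 7.96, 11.8, 10.1 and 5.02 CPM, all below the lowest 1 µM level at that time.

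Srebf1 (chr11:60199089-60222581, mm10, minus strand) showed a smaller difference. At 3 h the levels were 96.6, 90.7, 87.5, 79.96 and 86.3 CPM in 1 µM limbs, against 97.6, 98.3, 89.7, 96.7 and 95.9 CPM in controls, and the groups overlapped. At 24 h they were 122, 120.3, 108, 105 and 115 CPM in 1 µM limbs, against 134, 139, 129.9, 128 and 138 CPM in controls. At 48 h they were 116, 122, 124, 128 and 128 CPM in 1 µM limbs, against 143, 152, 137, 149 and 151 CPM in controls. All 1 µM libraries lay below all controls at 24 h and at 48 h, as did 0.216% and 0.377% of genes at these times. The combined log2 fold change was -0.20 ± 0.030 (edgeR adjusted p = 0.00112). Leaving out a whole time ended this call: without 24 h the value was -0.18 with an adjusted p of 0.530, and without 48 h it was -0.17 with an adjusted p of 0.404. At 5 µM the value was -0.47 ± 0.044, and 5 µM over 1 µM was -0.27 ± 0.041 (adjusted p = 5.75e-05).

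Of the 15 LXR genes tested, 14 had a negative combined estimate and 7 were lower at an unadjusted p under 0.05 (46.7%, against 2.36% of all genes), with none higher. Their median log2 fold change was -0.12, with -0.087 at 3 h, -0.11 at 24 h and -0.18 at 48 h. Beside the 2 called genes, the 7 were Mylip, Abca1, Apoe, Lpl and Lpcat3. Without the 48 h libraries 4 members of the list were lower at that threshold. Over all genes, 590 passed it in either direction in that fit, against 743 with all libraries. Mylip, a ubiquitin ligase, had a log2 fold change of -0.16 ± 0.035 (adjusted p = 0.136). Abca1 (chr4:53030787-53159895, mm10, minus strand) had a log2 fold change of -0.23 ± 0.049 (adjusted p = 0.148). At 24 h its 1 µM libraries held 102, 109.5, 115, 115 and 104 CPM and controls 133, 128, 134, 147 and 118 CPM, which did not overlap (0.216% of genes were lower without overlap at that time). The groups overlapped at 3 h and at 48 h.

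Apoe, an apolipoprotein that carries cholesterol out of macrophages, had a log2 fold change of -0.22 ± 0.063. At 48 h it measured 388, 328, 336, 385 and 423 CPM in 1 µM limbs, against 434, 531, 562, 424 and 529 CPM in controls, with the groups apart by a narrow margin (0.377% of genes were lower without overlap at that time). At 3 h its log2 fold change was -0.027. Lpl, lipoprotein lipase, had a log2 fold change of -0.14 ± 0.052, and Lpcat3, which puts polyunsaturated fatty acids into phospholipids, had a log2 fold change of -0.071 ± 0.034. The desaturases Scd2 and Scd1 had a log2 fold change of -0.058 ± 0.029 and -0.0075 ± 0.041. Fasn, which holds the same letters as Abca1 in its window, had a log2 fold change of -0.037 ± 0.031. The receptors themselves did not pass: Nr1h3 (LXRα) had a log2 fold change of -0.17 ± 0.12, and Nr1h2 (LXRβ) had a log2 fold change of -0.050 ± 0.042.

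**Figure D2:**
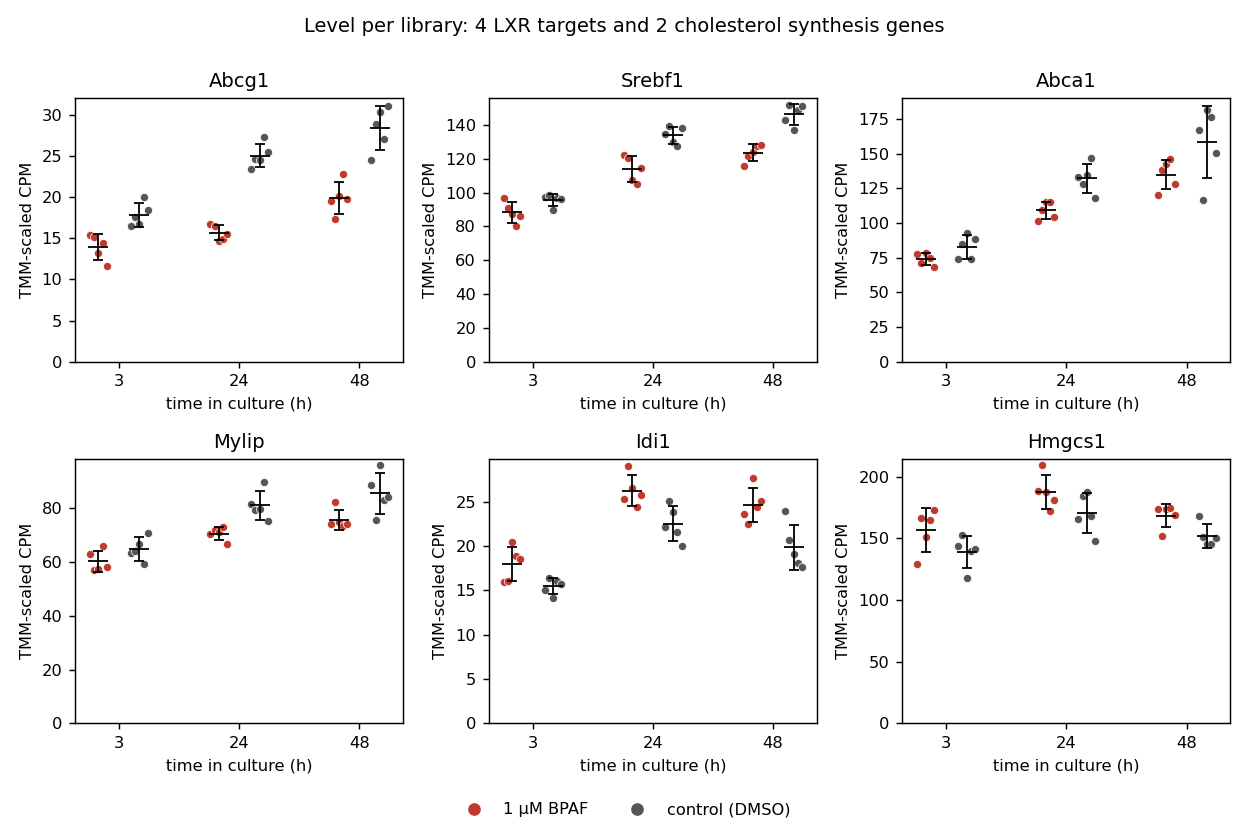
TMM-scaled CPM per library (vertical axes, from 0) of 4 LXR targets and 2 cholesterol synthesis genes by time in culture in hours, with 1 µM BPAF left of control at each time; points are libraries, the bar and whiskers mean and SD of 5. Abcg1 libraries of 1 µM lie below all controls at each time, and Idi1 and Hmgcs1 means lie above those of controls at each time, with overlap.

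At 5 µM, 9 of the 15 LXR genes were called lower over the same controls, where 5.03% of 18041 genes were called lower and 9.47% either way. In the test of 5 µM over 1 µM, 975 of 18122 genes were called (5.38%), 452 higher (2.49%) and 523 lower (2.89%). Of the LXR genes, 6 were lower at 5 µM than at 1 µM and none was higher. They were Abcg1, Srebf1, Mylip, Abca1, Apoe and Scd2. For Abca1 the dose difference was -0.38 ± 0.056 (adjusted p = 5.30e-05), and for Mylip -0.18 ± 0.034 (adjusted p = 6.09e-04). The 2 comparisons with control share their control libraries, so their values are set side by side without a measure of agreement.

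Estimates of cholesterol synthesis genes lay on the other side of zero. None of the 25 was called by edgeR with the times combined, yet 24 had a positive estimate and 15 were higher at an unadjusted p under 0.05 (60%, against 1.76% of all genes), with none lower. Their median log2 fold change was 0.11, against -0.0020 over all genes. By time, the medians were 0.13 at 3 h, 0.12 at 24 h and 0.097 at 48 h, and 24, 23 and 23 members were positive at these times.

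Idi1 (chr13:8885501-8892451, mm10, plus strand) came nearest to a call, with 0.25 ± 0.048 and an edgeR adjusted p of 0.0582, a level 18.6% higher in 1 µM limbs. At 3 h it measured 15.9, 16.1, 20.5, 18.8 and 18.5 CPM in 1 µM limbs, against 15.1, 16.3, 14.2, 16.1 and 15.8 CPM in controls. At 24 h it measured 25.3, 29.04, 26.6, 24.4 and 25.8 CPM in 1 µM limbs, against 22.1, 25.1, 23.9, 21.6 and 19.96 CPM in controls. At 48 h it measured 23.6, 22.4, 27.7, 24.4 and 25.04 CPM in 1 µM limbs, against 23.9, 20.7, 19.1, 18.1 and 17.6 CPM in controls. The means of 1 µM limbs were higher at each time, and the groups overlapped at each time.

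Other members, chosen after their values were seen, cover several steps of the pathway. At its entry, Hmgcs1 had a log2 fold change of 0.15 ± 0.041 (unadjusted p = 7.17e-04), with 188 ± 13.9 CPM in 1 µM limbs and 171 ± 16.2 CPM in controls at 24 h (SD, n = 5 each). Sqle, the epoxidase that commits squalene to sterols, had a log2 fold change of 0.11 ± 0.045 (unadjusted p = 0.0242).

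In the sterol part of the pathway, Lss had a log2 fold change of 0.16 ± 0.040 (unadjusted p = 2.77e-04), with 45.4, 42.9, 47.9, 44.2 and 45.6 CPM in 1 µM limbs and 42.6, 42.3, 36.7, 35.96 and 39.1 CPM in controls at 3 h, where the groups did not overlap (0.205% of genes were higher without overlap at that time). Msmo1 had a log2 fold change of 0.20 ± 0.049 (unadjusted p = 2.85e-04). Nsdhl, its partner in removing methyl groups, had a log2 fold change of 0.21 ± 0.057 (unadjusted p = 7.98e-04), and at 48 h it measured 38.9, 31.5, 34.4, 36.96 and 33.2 CPM in 1 µM limbs, against 27.7, 31.2, 31.5, 25.7 and 29.1 CPM in controls, with the groups apart by a narrow margin (0.272% of genes were higher without overlap at that time). Dhcr7, a late reductase of the pathway, had a log2 fold change of 0.14 ± 0.042. Adjusted p-values of the members other than Idi1 were 0.572 or higher.

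Among the controllers of the pathway, Insig1, which holds SREBP in the ER, had a log2 fold change of 0.17 ± 0.047 (unadjusted p = 0.00116). Srebf2 itself had a log2 fold change of 0.039 ± 0.034 (unadjusted p = 0.258).

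**Figure D3:**
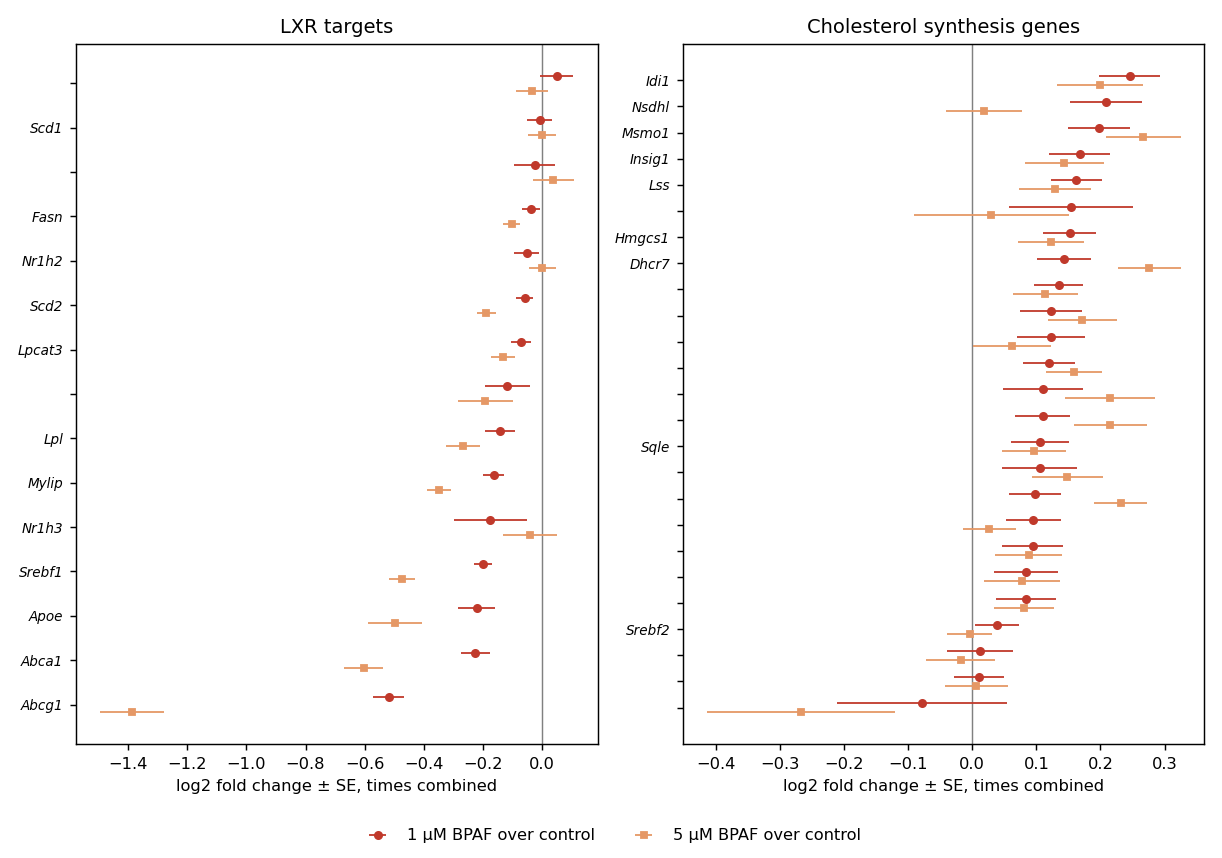
Log2 fold change ± SE with times combined (horizontal axes) of LXR targets and receptors (left) and cholesterol synthesis genes (right), with circles for 1 µM BPAF over control and squares for 5 µM BPAF over the same controls. Genes named in the text are labelled. Abcg1 was at -0.52 for 1 µM and -1.39 for 5 µM, while for cholesterol synthesis genes the circles and squares lie in the same range, with medians of 0.11 at both doses.

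The median log2 fold change of the 25 over control was 0.11 at 5 µM as at 1 µM, with 7 called higher at 5 µM, where 4.45% of all genes were. None of the 25 was called in the test of 5 µM over 1 µM, in which 8 had a positive and 17 a negative difference. For Idi1 the dose difference was -0.046 ± 0.067 with a 95% interval of -0.18 to 0.085, and for Hmgcs1 it was -0.029 ± 0.050 with an interval of -0.13 to 0.069. For Dhcr7 it was 0.13 ± 0.052 with an interval of 0.030 to 0.24, and for Nsdhl -0.19 ± 0.064 with an interval of -0.31 to -0.065, neither of which passed after adjustment (edgeR adjusted p = 0.150 for Dhcr7 and 0.0765 for Nsdhl). For Abcg1 the interval of the same difference was -1.07 to -0.67.

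ER chaperones form the next group. Hspa5, the main chaperone of the ER lumen, and its helpers fold secreted proteins such as collagens and are raised when unfolded protein builds up. All 20 members had a positive combined estimate and 12 were higher at an unadjusted p under 0.05 (60%, against 1.76% of all genes), but none was called. The median log2 fold change was 0.084, with 0.019 at 3 h, 0.097 at 24 h and 0.15 at 48 h. Leaving out the 48 h libraries left 4 members past that threshold, and leaving out those of 24 h left 6. Without the 7 libraries that held RNA of 1 sex only, by their Xist and Y-linked reads, 7 members were left. Over all genes, 590, 593 and 725 passed in either direction in these fits, in that order, against 743 with all libraries.

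Hspa5 had a log2 fold change of 0.11 ± 0.040 (unadjusted p = 0.00694). At 3 h it measured 548, 641, 636, 583 and 722 CPM in 1 µM limbs, against 638, 676, 544, 631 and 640.3 CPM in controls. At 48 h it measured 928, 1017, 1109.7, 942 and 863 CPM in 1 µM limbs, against 794, 884, 824, 824 and 803 CPM in controls, and here 4 of the 5 libraries of 1 µM lay above all controls. Manf, a secreted partner of Hspa5, had a log2 fold change of 0.15 ± 0.038 (adjusted p = 0.625). Sdf2l1, Creld2 and Dnajc3, which assist folding, had a log2 fold change of 0.19, 0.13 and 0.12. The lectin chaperone Canx had a log2 fold change of 0.099 ± 0.029, and Xbp1, the transcription factor of the unfolded protein response, had a log2 fold change of 0.098 ± 0.033.

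At 5 µM, 19 of the 20 were called higher over control (against 4.45% of all genes), and 18 were called higher in 5 µM than in 1 µM limbs (against 2.49%). The difference of 5 µM over 1 µM was 0.28 ± 0.040 for Hspa5 (adjusted p = 3.70e-05), 0.28 ± 0.034 for Calr and 0.34 ± 0.053 for Dnajb9. Hspa5 at 3 h measured 755, 839.7, 828, 783 and 919 CPM in 5 µM limbs, all above the highest 1 µM level at that time.

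**Figure D4:**
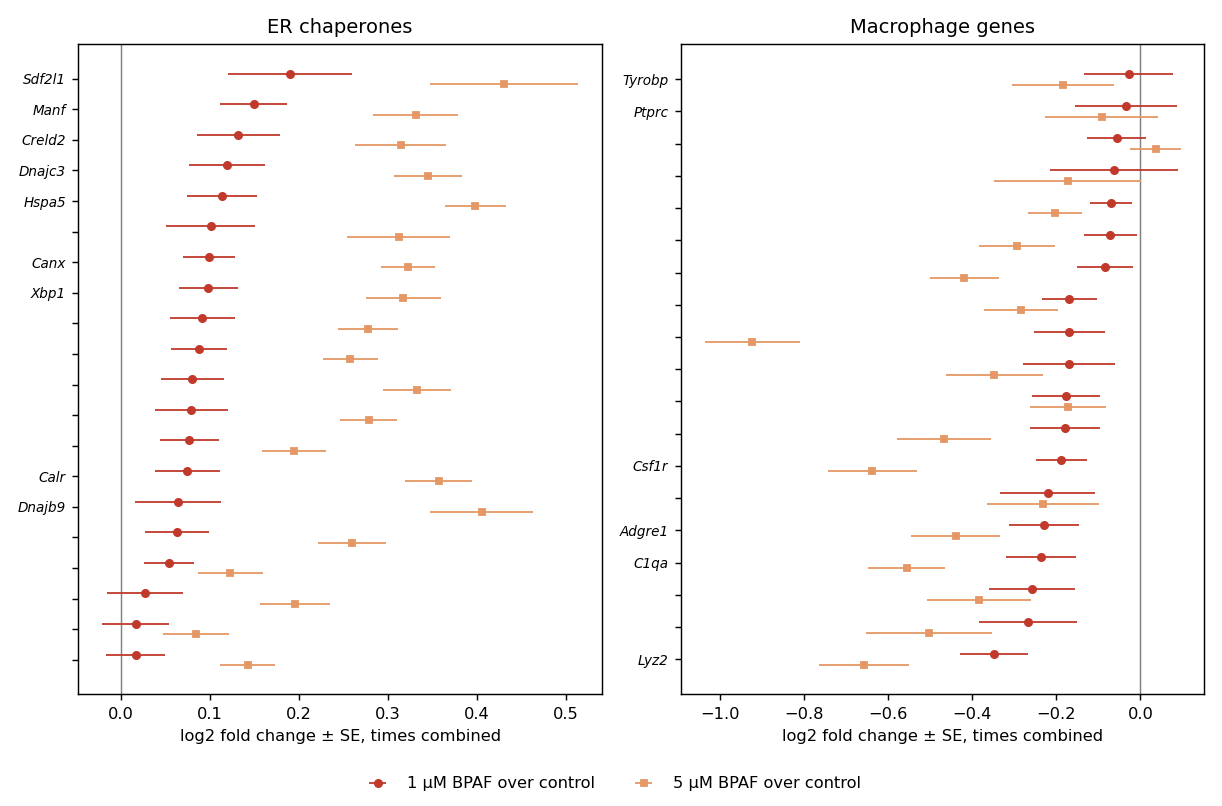
Log2 fold change ± SE with times combined (horizontal axes) of ER chaperones (left) and macrophage genes (right), with circles for 1 µM BPAF over control and squares for 5 µM BPAF over the same controls; genes named in the text are labelled. All 20 chaperone estimates and all 19 macrophage estimates at 1 µM lie on 1 side of zero, the chaperones above and the macrophage genes below it.

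Macrophages enter the limb early, clear dying cells and express Abcg1, Abca1, Apoe and Lpl themselves, so macrophage genes are given beside the LXR targets. All 19 tested macrophage genes of 20 listed had a negative combined estimate, and 9 were lower at an unadjusted p under 0.05 (47.4%, against 2.36% of all genes), with none called by edgeR. The median log2 fold change was -0.17, with -0.029 at 3 h, -0.19 at 24 h and -0.25 at 48 h. Without the 48 h libraries 4 members were lower at that threshold. In that fit 590 of all genes passed in either direction, against 743 with all libraries. In bulk libraries, fewer cells of a type and less RNA per cell cannot be told apart.

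Lyz2, the lysozyme of macrophages, had a log2 fold change of -0.35 ± 0.081 (adjusted p = 0.305). At 48 h it measured 62.2, 40.9, 56.1, 60.02 and 68.7 CPM in 1 µM limbs, against 83.7, 81.1, 97.3, 61.7 and 93.1 CPM in controls. Only replicate 4 of the controls lay within the range of the 1 µM libraries. Csf1r, the receptor macrophages need to survive, had a log2 fold change of -0.19 ± 0.060, Adgre1 (F4/80) had a log2 fold change of -0.23 ± 0.082 and the complement gene C1qa had a log2 fold change of -0.24 ± 0.084. Tyrobp and Ptprc, which mark myeloid cells and all white blood cells, had a log2 fold change of -0.028 ± 0.11 and -0.034 ± 0.12, the estimates nearest zero in the list, and no difference between markers was tested.

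The summed level of the list was 144 ± 14.3 CPM in 1 µM limbs and 149 ± 11.8 CPM in controls at 3 h (SD, n = 5 each). At 24 h it was 262 ± 18.6 CPM in 1 µM limbs and 293 ± 29.1 CPM in controls. At 48 h it ranged over 339 to 404 CPM in 1 µM limbs and 386 to 508 CPM in controls, with a small overlap. A further fit, added after the data were seen, took the mean log2 CPM of the macrophage genes as a covariate. In it Abcg1 had -0.47 with an edgeR adjusted p of 1.87e-04, and Srebf1 had -0.20 with an adjusted p of 0.0414. In the same fit 5 LXR genes were lower and 10 cholesterol synthesis genes higher at an unadjusted p under 0.05, against 7 and 15 without the covariate. Over all genes, 813 passed in either direction with the covariate and 743 without it.

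**Figure D5:**
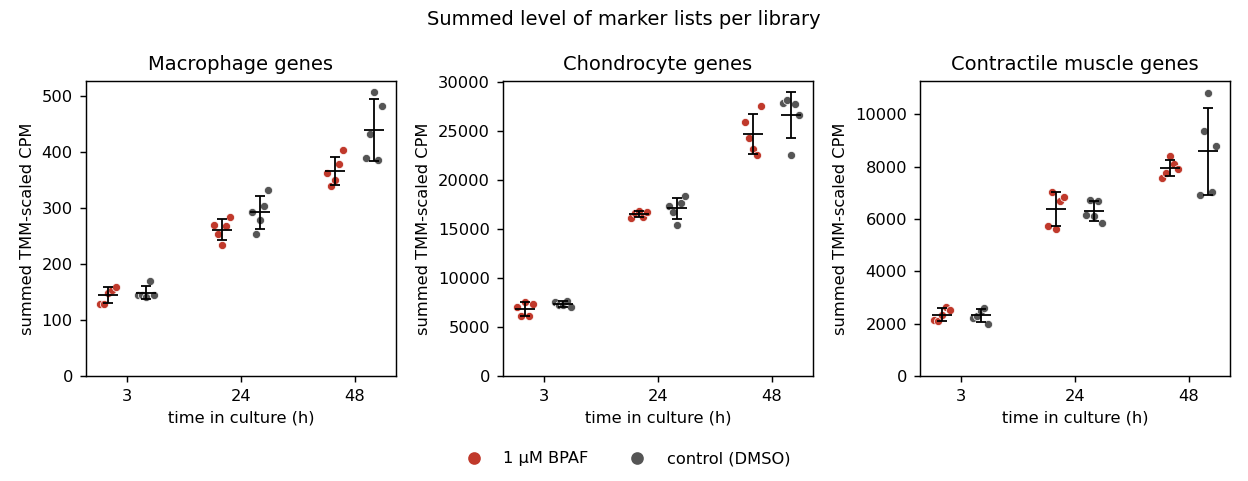
Summed TMM-scaled CPM per library (vertical axes, from 0) of macrophage, chondrocyte and contractile muscle genes by time in culture in hours, with 1 µM BPAF left of control at each time; points are libraries, the bar and whiskers mean and SD of 5. The macrophage mean at 48 h was 367 in 1 µM limbs and 440 in controls, and the muscle sums of the groups overlap at each time.

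Estimates of cartilage genes were mostly negative and small. Of 28 chondrocyte genes, 27 had a negative combined estimate and 13 were lower at an unadjusted p under 0.05 (46.4%, against 2.36% of all genes), with none called. Their median log2 fold change was -0.085. Col2a1 had a log2 fold change of -0.099 ± 0.036, Acan, which encodes the large cartilage proteoglycan aggrecan, had a log2 fold change of -0.12 ± 0.046, and Sox9, the master regulator of cartilage, had a log2 fold change of -0.064 ± 0.037. Snorc, a chondrocyte membrane proteoglycan, had a log2 fold change of -0.31 ± 0.091, the lowest p of the list, with 1.52, 0.871, 2.33, 1.97 and 1.76 CPM in 1 µM limbs, against 2.59, 2.10, 2.38, 3.07 and 2.98 CPM in controls at 3 h, where the groups overlapped. Epyc, a small proteoglycan of growth cartilage, had a log2 fold change of -0.29 ± 0.087.

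At 5 µM the list median over control was -0.020, with 1 member called higher and 2 lower, where 4.45% and 5.03% of all genes were. In 5 µM over 1 µM, where 2.49% of all genes were called higher, 2 members were, Col2a1 (0.18 ± 0.047) and Col27a1 (0.23 ± 0.046). The summed level of the list was 22553 to 27638 CPM in 1 µM limbs and 22581 to 28207 CPM in controls at 48 h, which overlapped. The count of 13 was 8 without replicate 4 of the 24 h controls, 5 without the 48 h libraries and 7 without those of 24 h. It was 4 with the mean log2 CPM of the macrophage genes as a covariate. Over all genes, 736, 590, 593 and 813 passed in either direction in these fits, in that order, against 743 in the main fit.

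With times combined, genes of later cartilage and bone gave no call in the fits made here without a replicate block. Col10a1, the collagen of hypertrophic cartilage, had a log2 fold change of -0.44 ± 0.19. At 24 h it measured 15.96, 12.2, 15.3, 13.8 and 13.7 CPM in 1 µM limbs, against 29.9, 16.8, 30.2, 19.7 and 20.2 CPM in controls, with no overlap (0.216% of genes were lower without overlap at that time). The 48 h levels were 169.9, 80.5, 78.6, 122 and 398 CPM in 1 µM limbs, against 192, 301, 119, 193 and 295 CPM in controls, and replicate 5 of the 1 µM limbs was the highest of all. In the authors' deposited table for 24 h, Col10a1 had a log2 fold change of -0.72 with an adjusted p of 0.0401. Ibsp, bone sialoprotein, had a log2 fold change of -0.29 ± 0.098 (unadjusted p = 0.00518), and was -1.31 ± 0.19 in 5 µM over 1 µM (adjusted p = 4.87e-05). Runx2, the master regulator of bone, had a log2 fold change of -0.015 ± 0.045, Ihh, the growth plate signal, 0.0042 ± 0.068, and Col1a1, the collagen of bone and connective tissue, -0.026 ± 0.047. Mmp13, a collagenase of late cartilage, had a log2 fold change of 0.57 ± 0.34 (unadjusted p = 0.10). It reached at most 0.369 CPM in 1 µM limbs and 0.476 CPM in controls at 24 h. Its 48 h levels were 3.07, 2.48, 4.02, 1.49 and 1.14 CPM in 1 µM limbs, against 1.02, 1.48, 1.57, 1.34 and 0.949 CPM in controls, and 2 of the 5 libraries of 1 µM lay within the control range. Nog, an inhibitor of bone morphogenetic proteins, had a log2 fold change of -0.088 ± 0.046.

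Several groups with many calls at 5 µM had few or no members past an unadjusted p of 0.05 at 1 µM, which 4.12% of all genes passed. Of 30 contractile muscle genes, 1 was lower (3.33%, against 2.36% of all genes) and none higher at an unadjusted p under 0.05 at 1 µM. In 5 µM over 1 µM, 26 of them were called lower, where 2.89% of all genes were. Myh3, the embryonic myosin, had a log2 fold change of -0.031 ± 0.059 at 1 µM and -0.67 ± 0.10 for 5 µM over 1 µM. Of 14 myogenic factors none passed an unadjusted p of 0.05 at 1 µM, and 8 were called lower in 5 µM than in 1 µM limbs (against 2.89% of all genes). Pax7, which marks muscle progenitors, had a log2 fold change of -0.012 ± 0.065, and Myod1, which commits cells to muscle, had a log2 fold change of 0.017 ± 0.054. No p53 target of 26 and no ATF4 or amino acid stress gene of 32 passed that threshold at 1 µM. In 5 µM over 1 µM, 17 and 12 of them were called higher, where 2.49% of all genes were.

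Genes that answer to the receptors bisphenols are best known for gave no call. Of 20 estrogen-responsive genes 2 were higher at an unadjusted p under 0.05 (10%, against 1.76% of all genes) and none was lower. They were Esr1 and Xbp1, which is also counted in the chaperone list. Esr1, estrogen receptor alpha, was near 1 CPM and had a log2 fold change of 0.36 ± 0.17 (unadjusted p = 0.0466). At 24 h it measured 1.25, 1.62, 1.63, 0.829 and 1.29 CPM in 1 µM limbs, against 0.595, 1.17, 1.26, 0.884 and 0.853 CPM in controls, and the groups overlapped. Of 21 steroid and related receptor genes 1 was higher (4.76%, against 1.76% of all genes), and of 8 targets of the aryl hydrocarbon receptor none passed in either direction.

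Tef, a clock-controlled transcription factor, was the other gene close to a call on the higher side, with 0.15 ± 0.030 and an edgeR adjusted p of 0.0582, and was chosen after its value was seen. At 24 h it measured 94.9, 87.5, 93.5, 95.1 and 92.4 CPM in 1 µM limbs, against 79.9, 79.8, 85.3, 78.2 and 91.0 CPM in controls, and 1 control lay within the 1 µM range. Its difference of 5 µM over 1 µM was 0.23 ± 0.030 (adjusted p = 2.19e-05). Of the 18 clock genes, Per2 (0.17 ± 0.056) was the other member higher at an unadjusted p under 0.05 and Nfil3 (-0.13 ± 0.056) the 1 lower. These were 11.1% higher and 5.56% lower, against 1.76% and 2.36% of all genes. Txnip, an inhibitor of thioredoxin and of glucose uptake, had a log2 fold change of -0.15 ± 0.047 (unadjusted p = 0.00352), and its relative Arrdc4 -0.095 ± 0.046. For Txnip 5 µM over 1 µM was -0.30 ± 0.048 (adjusted p = 1.28e-04).

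Taken singly, the times gave few calls. At 3 h none of 16631 genes was called, with 424 at an unadjusted p under 0.05 (2.55%), 208 higher (1.25%) and 216 lower (1.3%). At 24 h 1 of 16439 was called (0.00608%), Abcg1, and 439 had an unadjusted p under 0.05 (2.67%), 202 higher (1.23%) and 237 lower (1.44%). At 48 h none of 16479 was called, with 621 at an unadjusted p under 0.05 (3.77%), 202 higher (1.23%) and 419 lower (2.54%). DESeq2 called 2 genes at 24 h and 6 at 48 h. The authors' deposited tables hold 0, 2 and 4 genes with an adjusted p under 0.05 at 3 h, 24 h and 48 h. Abcg1 was in both of the later ones, with the authors' deposited log2 fold changes of -0.68 and -0.51. The other 3 genes in the authors' deposited table at 48 h were Apoe, Atp5e and Gm9755.

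No gene of 18047 was called for an effect that differs between times by edgeR, nor by DESeq2's likelihood ratio test, and 471 had an unadjusted p under 0.05 (2.61%). Estimates of 33 genes of glycolysis and the hypoxia response had opposite signs at 24 h and 48 h, and both medians moved when single libraries were left out. All 33 were negative at 24 h, with a median of -0.34, and all 33 were positive at 48 h, with a median of 0.12. The summed level of the list at 24 h was 4235, 3968.5, 4086, 4017 and 4165 CPM in 1 µM limbs, against 4082, 3978, 4420.4, 5274 and 7149.8 CPM in controls, with replicate 5 of the controls far above the others. Without that library the 24 h median was -0.18, and 31 of the 33 were negative. At 48 h the sums were 5102, 7123, 4878, 5229.9 and 4001 CPM in 1 µM limbs, against 4522, 6029.5, 4436, 5303 and 4494 CPM in controls, and the groups overlapped. Without replicate 2 of the 1 µM limbs the 48 h median was -0.043, with 23 of the 33 negative. It was 0.23 without replicate 5 of the 1 µM limbs, 0.22 without control replicate 2 and 0.076 without control replicate 3. Leaving libraries out here was chosen after the data were seen. With times combined none of the 33 passed an unadjusted p of 0.05. Ldha, lactate dehydrogenase, had a log2 fold change of -0.39 at 24 h and 0.062 at 48 h.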

How the data were processed

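Per the labels, messenger RNA was selected by poly-A from total RNA. The deposited tables hold, per the file headers, whole-number counts for each gene in 10 libraries. The authors also deposited a log2 fold change and a p-value for each gene. The submitters' processing notes name CASAVA 1.8, STAR 2.5, HTSeq 0.6.1 and DESeq2, with build mm10, and give no roles or strand setting. Whether antisense or overlapping genes share reads is not given in the sources used here. Counts of 6 tables were joined into 35212 genes. A gene absent from a table was read as 0 there, which applied to 13.3% of gene and library combinations, since the tables list genes with at least 2 reads over their libraries. Symbols were matched for 35177 genes. Start and end positions were the same as in GENCODE release M21 for 97.7% of genes.

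Libraries were grouped by their labels. Fits used edgeR 4.0.16 in R 4.3.3: TMM scaling, filterByExpr by the 6 groups (minimum count 10, minimum total 15), time as a factor and 1 dose term, and the quasi-likelihood F-test with Benjamini-Hochberg adjustment at 0.05. Single times, dose by time and 5 µM over 1 µM were fitted likewise. Fold changes are log2 values of 1 µM over control with the SE. Intervals of a dose difference are the estimate with a normal 95% interval from its SE. Levels are TMM-scaled CPM over the 45 libraries and are not divided by gene length. Depth limits the precision of genes near 1 CPM. The script was tested on simulated data.

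The rule for named genes took 18 genes whatever their result, the called genes with the smallest p at a mean CPM of at least 1 (up to 12 per direction and 6 per single-time or time-difference test) and up to 3 called members per list. It gave those 18 and Srebf1. Other genes are named as members of a list or after their values were seen. Some list members are not reported here by name. The comparison, the 47 gene lists and the tests were chosen with earlier results of these data known, so no list count is independent support. Alternatives were DESeq2 1.42.0, limma-voom 3.58.1, other scaling, filters, covariates, replicate blocks, whole times left out and each library left out.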

Additional observations from a re-analysis of the deposited data

Results flagged for a closer look

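In each group of 5 libraries, the highest or lowest library was compared with its nearest neighbour for the 19 genes named by rule and 4 library measures, 138 groups in all. In 9 of them 1 library stood apart by Dixon's criterion, and chance gives about 1 in 20 groups. In 1 µM limbs these were Col10a1 at 48 h, where replicate 5 had 398 CPM and the next library 169.9 CPM, Col1a1 at 24 h with 3037 CPM in replicate 3, Myod1 at 48 h with a low of 108 CPM in replicate 2, and Esr1 at 48 h with a low of 0.717 CPM in replicate 4. In controls they were Runx2 at 24 h with a low of 52.1 CPM in replicate 3, Pax7 at 48 h with 16.9 CPM in replicate 3, Txnip at 3 h with 209 CPM in replicate 5, Srebf1 at 3 h with a low of 89.7 CPM in replicate 3, and the haemoglobin share at 24 h with 0.251% in replicate 5. No library stood apart in more than 1 of these measures.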

How the results depend on the processing

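The main fit called 2 genes with times combined, and the counts here include both where they were called. DESeq2 called 6, adding Abca1, Idi1, Mylip and Tef, and limma-voom 5, adding Idi1, Lyz2 and Tef. The haemoglobin covariate gave 5, adding Idi1, Mylip and Tef, and the Y-linked covariate 4, adding Hmgcs1 and Idi1. The chondrocyte covariate, added after the data were seen, gave 5, adding Abca1, Mylip and Tef. Idi1 and Tef were each called in 8 of the 47 alternatives, Mylip in 6 and Abca1 in 4. Leaving out all 24 h libraries gave 1 and all 48 h libraries 1. Leaving out 1 library gave 2 to 4, with 4 without replicate 4 of either group at 3 h or replicate 2 of the 48 h controls. Abcg1 was called in all 47 alternatives and Srebf1 in 45. Nothing in the labels says that a replicate number marks a shared day or litter. By the titles' numbers 11 of 15 pairs correlated by over 0.1, and in 9 the best match among 5 controls was the shared number. By the numbers in the library codes these counts were 13 of 15 and 11. Without any pairing, the shared number would be the best match in about 1 of 5 pairs. The median correlation of a pair was 0.22 by either numbering. In the codes, numbers 1 and 2 of the 1 µM limbs at 48 h are swapped relative to the titles. Since not every pair passed 0.1, the numbers were not taken as pairing, and the correlations are a hint from the data only. With the replicate block the count was 3, adding Ibsp (adjusted p = 0.0496). With the block by library codes it was 6, adding Abca1, Msmo1, Ibsp (adjusted p = 0.0187) and Col10a1 (adjusted p = 0.0402). Genes at an unadjusted edgeR p under 0.05 numbered 910 and 1022 in these blocks, in that order, against 743 in the main fit. At 3 h leaving out 1 library gave 0 to 1, with 1 without control replicate 4. At 24 h DESeq2 gave 2, no filter 3 and the replicate block 2, and leaving out 1 library gave 1. At 48 h DESeq2 gave 6 and a model of 6 groups 1, and leaving out 1 library gave 0. Signs changed for uncalled genes near zero. Runx2 was 0.0045 without 3 h and 0.0034 with the chondrocyte covariate (-0.032 to 0.012 leaving out 1 library). Ihh was -0.0024 by limma-voom, -0.0015 and -0.0017 in the blocks, -0.039 without 24 h and -0.025 without libraries of 1 sex (-0.030 to 0.036). Col1a1 was 0.0023 without 3 h, 0.0073 without libraries of 1 sex and 0.054 with the macrophage covariate (-0.051 to 3.74e-04). Pax7 was 0.054 without 48 h and 0.0020 without libraries of 1 sex (-0.039 to 0.020). Myod1 was -0.027 with the chondrocyte covariate (-0.014 to 0.034). Myh3 was 0.027 without 48 h, 0.016 without libraries of 1 sex and 0.079 with the macrophage covariate (-0.053 to 0.011). The cause was not tested. At a median of 17799516 reads, the median SE of a log2 fold change was 0.063. A difference had to be several times its SE to be called, and Idi1, at 0.25 ± 0.048, was not called in the main fit.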

Other observations

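Several other gene groups were measured at 1 µM with times combined, and no member named here was called. Of 30 nuclear oxidative phosphorylation genes, 28 had a negative estimate, with a median of -0.045. At an unadjusted p under 0.05, 3 of them were lower (10%, against 2.36% of all genes). Of 34 cytosolic ribosomal protein genes, 31 were negative and 1 was lower at that threshold (2.94%, against 2.36% of all genes). The median of that list was 0.010 at 3 h and -0.098 at 48 h. Of 22 tendon and fibrous tissue genes, 21 had a negative estimate and none passed, with a median of -0.031. Of 29 genes of DNA replication 1 was higher (3.45%, against 1.76% of all genes), and of 26 genes of mitosis none passed. Of 12 genes of fat metabolism and the PPAR receptors, 4 were lower at an unadjusted p under 0.05 (33.3%, against 2.36% of all genes), Lpl among them.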
